A study of Mus musculus with 36 samples.

Results

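The genes described here are 8 known markers of the macrophages that live beside arteries and carry the hyaluronan receptor LYVE1. They were taken by gene symbol from count files that list 24421 genes, and all 8 were found: Lyve1, Folr2, F13a1, Cbr2, Cd209f, Cd209g, Sepp1 and Ednrb. RNA had been sequenced from 3 populations of sorted cells, with 4 libraries in each of 9 groups and 36 in all. Every group, controls included, came from mice labelled Apoe ko, which lack apolipoprotein E and develop atherosclerosis on a cholesterol-rich diet. The populations were macrophages sorted from digested whole aorta, macrophages from peritoneal lavage, and circulating monocytes sorted from blood and spleen. Each was sampled at baseline (chow diet), in early atherosclerosis (1 month of high cholesterol diet) and in advanced atherosclerosis (6 months of that diet). The study set out to follow monocytes and macrophages, systemic and lesional, as atheroma begins and grows. The labels give neither an age nor the mouse behind each library, and p-values therefore cover only the spread among these samples, which may be technical.

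Resident macrophages of the arterial adventitia settle before birth or soon after it and maintain themselves largely by division. LYVE1, on their surface, binds hyaluronan of the vessel's matrix, and FOLR2, CD163 and the mannose receptor are carried by many of the same cells. In atherosclerosis, monocytes entering from blood add macrophages of other kinds, among them lipid-laden foam cells that express TREM2 and its associated genes, and a sort of the whole aorta collects all of these together. In such bulk RNA, fewer cells of a type and less RNA per cell cannot be told apart.

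Levels are given as counts-per-million (CPM). The 12 baseline libraries held 5278901 to 14771799 counted reads, the early ones 1311757 to 2628766 and the advanced ones 942899 to 2468285, so baseline and a greater depth cannot be told apart. Beyond counting noise, the spread of a gene between libraries (edgeR's biological coefficient of variation) came to 110% for aortic, 21.2% for peritoneal and 19.1% for monocyte libraries. Aortic baseline libraries 3 and 4 and advanced library 1 correlated least with the rest of their groups. Peritoneal early libraries 1 and 2 held the monocyte receptor gene Ccr2 at 897 and 1311 CPM. The other early ones had 24.4 and 48.0 CPM. Monocyte advanced library 3 had the highest sum of 5 neutrophil genes (27014 CPM). None of 10 general macrophage genes was at 0 over the libraries of any population, and 6 genes of large peritoneal macrophages, Gata6 among them, summed to 6.75 to 403 CPM in aortic, 5470 to 21516 CPM in peritoneal and 11.9 to 78.5 CPM in monocyte libraries.

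The members lie on 6 chromosomes of the mouse genome (GRCm38, GENCODE M21 annotation). Lyve1 lies on chromosome 7, 110850607 to 110863239, and Folr2 on the same chromosome, 101839988 to 101857194. F13a1 lies on chromosome 13, 36867178 to 37050244, Cbr2 on chromosome 11, 120729489 to 120732114, Sepp1 (annotated as Selenop) on chromosome 15, 3268547 to 3280508, and Ednrb on chromosome 14, 103814625 to 103844402. Cd209f (4102787 to 4105835, minus strand) and Cd209g (4134098 to 4137707, plus strand) are neighbours on chromosome 8. They are paralogs, mouse C-type lectins of the DC-SIGN family, and their starts are shown because the pair is alike in sequence there. Whether this likeness has a part in their levels was not tested. The sequences run 5′ to 3′ from 250 bases before to 50 bases after each gene's start, in RefSeq's annotation of GRCm38.p6. Capitals mark stretches of at least 20 bases that are identical between them.
Cd209f, chr8:4105715-4106014, minus strand: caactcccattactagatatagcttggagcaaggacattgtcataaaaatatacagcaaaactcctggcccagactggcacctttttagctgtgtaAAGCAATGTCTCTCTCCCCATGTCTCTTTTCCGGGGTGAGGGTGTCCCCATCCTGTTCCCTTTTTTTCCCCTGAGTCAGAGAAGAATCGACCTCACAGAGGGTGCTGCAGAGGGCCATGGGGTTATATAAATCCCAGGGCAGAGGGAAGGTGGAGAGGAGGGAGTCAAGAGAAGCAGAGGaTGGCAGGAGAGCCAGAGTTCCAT
Cd209g, chr8:4134486-4134785, plus strand: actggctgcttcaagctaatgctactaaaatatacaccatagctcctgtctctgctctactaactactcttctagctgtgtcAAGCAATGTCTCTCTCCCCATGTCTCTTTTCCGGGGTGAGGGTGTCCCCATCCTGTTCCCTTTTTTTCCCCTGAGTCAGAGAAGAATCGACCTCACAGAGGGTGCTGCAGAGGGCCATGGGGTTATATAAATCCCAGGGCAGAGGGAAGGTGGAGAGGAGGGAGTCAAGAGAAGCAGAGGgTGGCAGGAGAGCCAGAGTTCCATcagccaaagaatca

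Over 286 aligned bases the pair had 238 identical ones (83.2%), and the longest identical run was 180 bases. The AP-1 motif TGAGTCA, searched on both strands, lay 83 bases before the RefSeq start of Cd209f and 97 bases before that of Cd209g. It was inside the capitals of each. The annotations differ on the starts of both genes, and these distances hold for RefSeq only. GENCODE places the start of Cd209g at 4134098, so the whole window (4134486 to 4134785) lies inside the GENCODE gene. It places that of Cd209f at 4105835, inside the window (4105715 to 4106014) and upstream of the RefSeq start. The same letters occur in 5.20% of 32851 promoter windows of this length, and in those of 3 of the 7 members that the promoter table holds (Folr2, Cd209f and Cd209g). The motif GAGGAAGT, bound by the macrophage factor PU.1, occurs in 3.20% of the windows and in those of F13a1 and Sepp1, and the MAF motif TGCTGA in 19.5% and in those of Folr2, Cbr2 and Ednrb. The percentages are per window, while a member counts if any of its windows matches, and Folr2, F13a1 and Sepp1 have several. The member counts are therefore not on the same footing as the percentages. The AP-1 matches of Cd209f and Cd209g lie in the same shared stretch. A match is a description of the sequence and not a binding site. The likeness continues into the transcripts: 34.6% of the 36-base words of Cd209f transcripts also occur in Cd209g, and 19.2% of those of Cd209g in Cd209f. How the counting treated reads that match both genes is not stated, so the split of reads between them is uncertain, and strand use is not stated either.

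The 8 members together took 0.998 to 1.90% of the reads of aortic macrophages, 0.234 to 0.658% in peritoneal macrophages and 0.109 to 0.257% in monocytes, and these ranges do not overlap between the aorta and the other populations. Averaged over stages, aortic macrophages exceeded monocytes in 8 of 8 members by edgeR's quasi-likelihood test, where 18.4% of 11052 genes tested were higher. In 7 of 8 the libraries did not overlap (background 2.63%). Against peritoneal macrophages 7 members were higher in the aorta (background 17.1%), 6 of them with no overlap of libraries (background 2.06%), and 1, Ednrb, was lower (background 17.0%). The median log2 fold change of the members was 9.70 against monocytes, or 9.18 with Cd209g at its lower bound, and 4.45 against peritoneal macrophages, while the medians over all genes were -0.04 in both comparisons. The members were chosen as known markers of such cells, and the counts describe how far each of them holds. The plot of all libraries shows these levels on one scale.

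**Figure D1:**
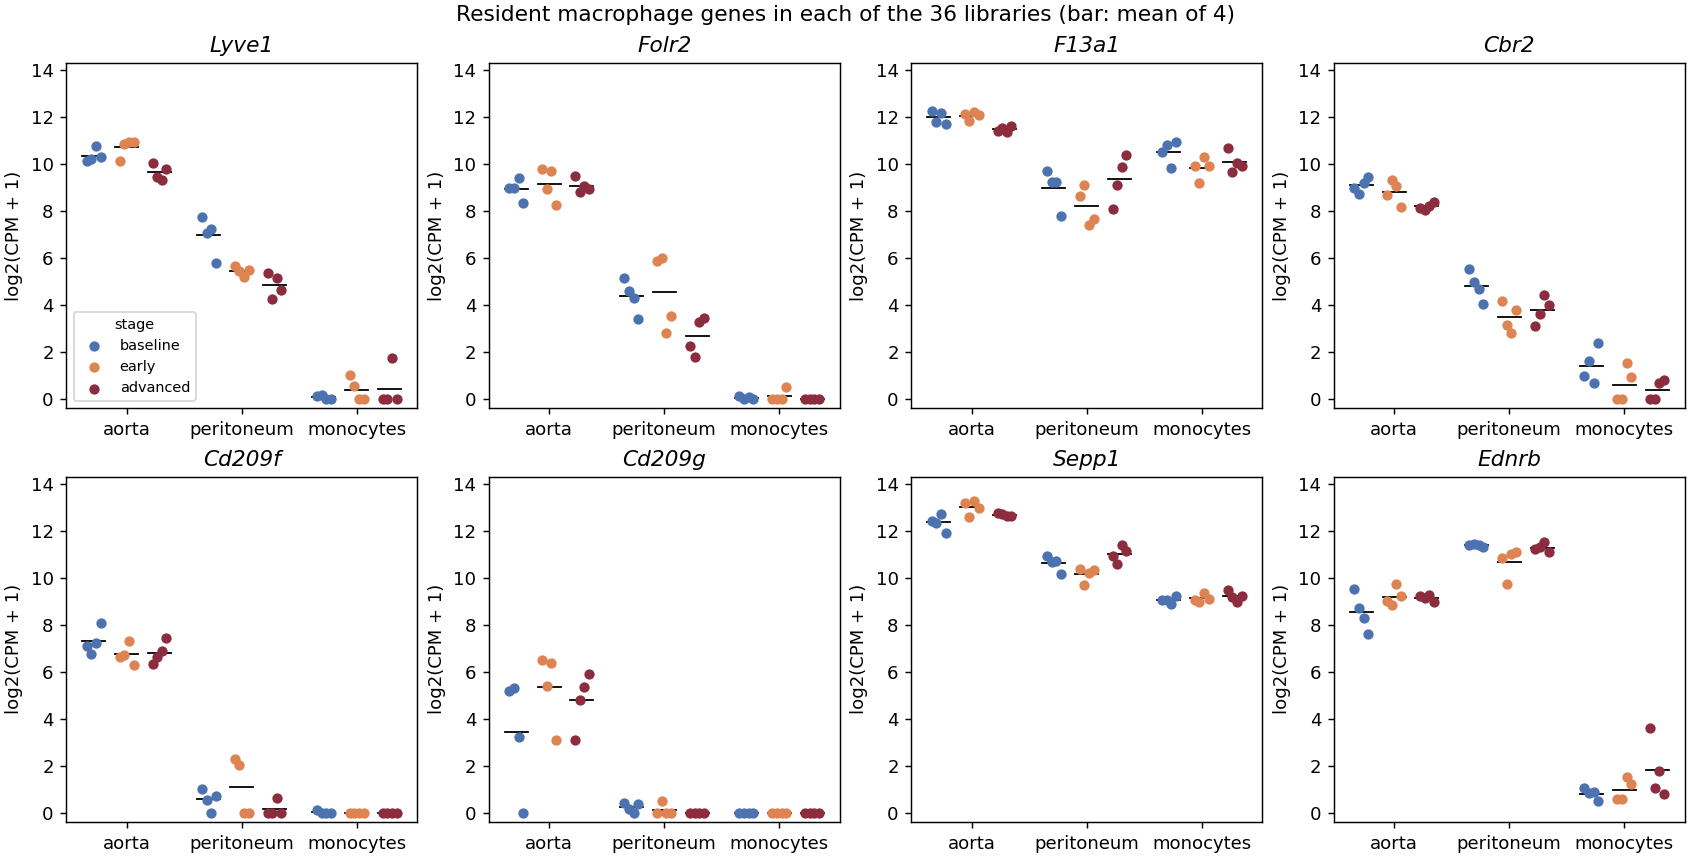
Level of each of the 8 genes in each of the 36 libraries, as log2(CPM + 1) on the vertical axis, for aortic macrophages, peritoneal macrophages and monocytes from left to right and, within each, baseline, early and advanced stage. Points are libraries and bars the means of 4. The aortic points lie highest for every gene except Ednrb, and except Cd209g in aortic baseline library 4, which is at 0.

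Among the surface receptors, Lyve1 had 635, 1166 and 1986 CPM in aortic macrophages (lowest, median and highest of 12 libraries), 18.0, 43.5 and 213 CPM in peritoneal macrophages and 0, 0 and 2.37 CPM in monocytes. The 3 ranges do not overlap, and the whole of the monocyte signal was 9 counts in 5 of 12 libraries. The aortic over peritoneal log2 fold change was 4.34 ± 0.22 (SE; Benjamini-Hochberg adjusted p = 8.45e-18, edgeR), and that of peritoneal macrophages over monocytes was 7.87 ± 0.33 (adjusted p = 2.10e-20). Lyve1 also marks lymphatic endothelium, so a list of 6 such genes was read beside it, and its sum was 0 to 72.4 CPM in aortic libraries. Ccl21a and Reln had no count in any of these, but Ccl21a had none in the other populations either. Flt4, Mmrn1 and Prox1 reached 0.467, 2.16 and 7.01 CPM. Pdpn had 10.2 to 67.0 CPM at the advanced stage, and at most 7.32 CPM at baseline and 0.761 CPM early. The part of lymphatic endothelium in the Lyve1 level was not tested.

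Folr2, the gene of folate receptor beta, had 303, 502 and 873 CPM in aortic macrophages, 2.40, 10.3 and 63.7 CPM in peritoneal macrophages, and 3 counts in all in 3 of 12 monocyte libraries. No library of one population reached the range of another. Aortic macrophages were higher than peritoneal ones by a log2 fold change of 4.91 ± 0.31 (adjusted p = 1.06e-14, edgeR), and the ratio of pooled CPM of aortic macrophages over monocytes was 10245, with a 95% counting interval of 3505 to 49683.

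Ednrb, which encodes the endothelin receptor type B, was the exception. It had 194, 536 and 853 CPM in aortic macrophages, 846, 2436 and 2903 CPM in peritoneal macrophages and 0.389, 0.936 and 11.3 CPM in monocytes. The ranges of the macrophage populations meet in a single peritoneal library, early library 2, at 846 CPM. The log2 fold change was -2.27 ± 0.20 for aortic over peritoneal macrophages (adjusted p = 1.57e-11, edgeR) and 10.79 ± 0.31 for peritoneal macrophages over monocytes (adjusted p = 4.14e-25). Both macrophage populations stood above monocytes, and the higher of them was in the cavity and not in the vessel.

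The lectins were the members most restricted to the aorta. Cd209f had 77.6, 111 and 269 CPM in aortic macrophages, 0, 0.216 and 3.89 CPM in peritoneal macrophages with 42 counts in all, and 1 count in the 12 monocyte libraries. Cd209g had 0, 36.6 and 89.9 CPM in aortic macrophages, with 1466 counts, against 10 counts in peritoneal macrophages and none in monocytes. Every library outside the aorta lay below every aortic one for Cd209f, while Cd209g was also at 0 in aortic baseline library 4. Over peritoneal macrophages, the log2 fold change was 7.75 ± 0.52 for Cd209f (adjusted p = 3.53e-13, edgeR) and 8.38 ± 1.00 for Cd209g (adjusted p = 2.83e-07). Over monocytes, Cd209g was at least 599-fold higher, with 3 counts over the monocyte libraries as the floor. Cd209f also passed for peritoneal macrophages over monocytes, at 4.24 ± 1.27 (adjusted p = 0.0104), but that call rests on few counts and was lost without peritoneal advanced library 3 (adjusted p = 1.00), which holds the only Cd209f count of its stage, and without the libraries that stood apart (2.17, adjusted p = 1.00).

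The remaining 3 members encode an enzyme and secreted proteins, and F13a1 and Sepp1 were also present in monocytes. F13a1, the A subunit of coagulation factor XIII, which cross-links fibrin, had 2671, 3591 and 4842 CPM in aortic macrophages, 169, 546 and 1334 CPM in peritoneal macrophages and 586, 1013 and 1968 CPM in monocytes. The aortic range stood clear of both others, which overlapped. Aortic macrophages had a log2 fold change of 1.74 ± 0.21 over monocytes (adjusted p = 2.67e-08, edgeR) and 2.69 ± 0.22 over peritoneal macrophages (adjusted p = 2.45e-12), and peritoneal macrophages were lower than monocytes, at -0.96 ± 0.21 (adjusted p = 0.000410). Platelets also carry F13a1, and the summed level of 6 platelet genes was 0 to 66.7 CPM in aortic, 0.391 to 65.4 CPM in peritoneal and 25.8 to 170 CPM in monocyte libraries. Their part in the F13a1 level was not tested.

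Sepp1 encodes selenoprotein P, a secreted carrier of selenium. It had 3856, 6503 and 9841 CPM in aortic macrophages, 829, 1575 and 2668 CPM in peritoneal macrophages and 468, 539 and 701 CPM in monocytes, 3 ranges that do not overlap. Its log2 fold change was 3.65 ± 0.12 for aortic macrophages over monocytes and 1.93 ± 0.11 over peritoneal macrophages (adjusted p = 2.72e-23 and 3.97e-16, edgeR). Cbr2, a carbonyl reductase, had 261, 418 and 702 CPM in aortic macrophages, 6.09, 15.2 and 45.5 CPM in peritoneal macrophages and 0, 0.668 and 4.18 CPM in monocytes. Its ranges did not overlap either, and the log2 fold change of aortic over peritoneal macrophages was 4.56 ± 0.27 (adjusted p = 7.36e-16).

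Peritoneal macrophages exceeded monocytes in 6 members (background 15.0%), F13a1 alone was lower (background 14.8%), and Cd209g, with 10 counts against none, was at least 3.26-fold higher in pooled CPM by the same floor but did not pass. Their median log2 fold change was 4.41, and that of all genes 0.01. Per kilobase of exon, the order in aortic macrophages was Sepp1 (a mean of 2363 ± 586 CPM per kb, SD, n = 12), F13a1 (557 ± 119), Lyve1 (443 ± 163), Folr2 (361 ± 117), Cbr2 (330 ± 114), Ednrb (124 ± 41.4), Cd209f (65.5 ± 26.7) and Cd209g (9.995 ± 8.04). Neighbours from F13a1 to Cbr2 lay within 1 SD of each other. In peritoneal macrophages the order began with Sepp1 (569 ± 183 CPM per kb) and Ednrb (539 ± 130), which also lay within 1 SD, and in monocytes with Sepp1 (197 ± 24.0) and F13a1 (178 ± 63.4), with the rest at a mean under 1 CPM per kb. Exon lengths are those of the annotation's union of transcripts, which need not be the transcripts these cells use.

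Within aortic macrophages, the stage comparisons ask whether resident genes change as lesions form. No member passed in any of the 3 comparisons. The background was 0.373% of 9920 genes for early against baseline, 0.0403% for advanced against early and 0.585% for advanced against baseline, so few genes of any kind passed in this population. At an unadjusted p under 0.05 stood Sepp1 and Ednrb for early against baseline (background 10.2%), Lyve1, F13a1 and Cbr2 for advanced against early (3.57%), and Lyve1, F13a1, Cbr2 and Sepp1 for advanced against baseline (8.83%). DESeq2 called 1, 0 and 0 members in these 3 comparisons and limma-voom with quality weights 1, 3 and 0. The plot by stage gives the libraries.

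**Figure D2:**
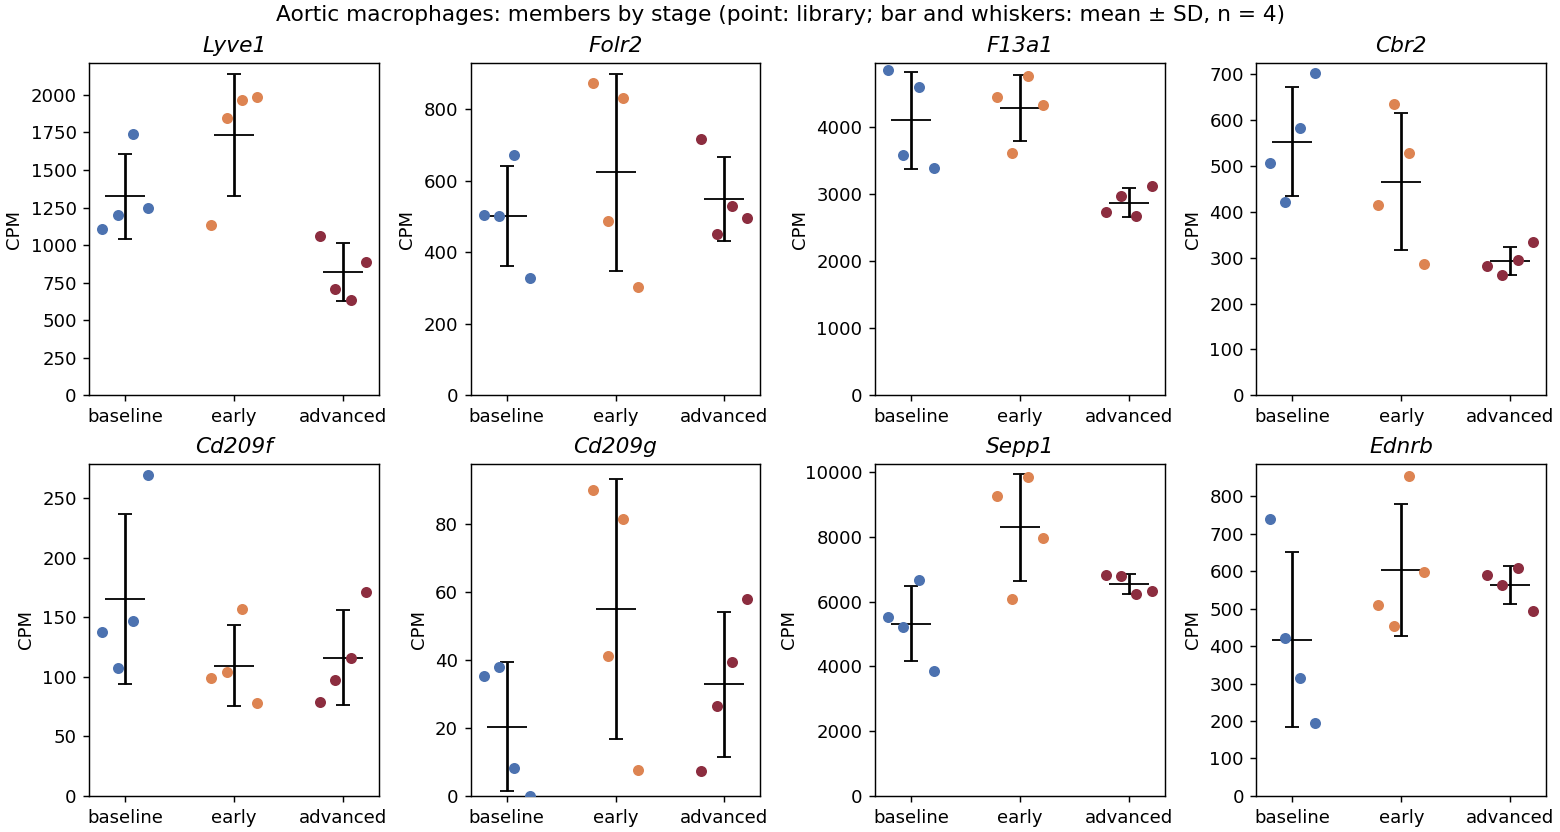
CPM (vertical axis) of each gene in the 12 aortic macrophage libraries at baseline, early and advanced stage, with points for libraries and bars with whiskers for mean ± SD (n = 4). The advanced libraries lie lowest on average for Lyve1, F13a1 and Cbr2, and the early ones highest for Sepp1.

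Lyve1 was lowest at the advanced stage. It had 1108, 1201, 1743 and 1246 CPM at baseline, 1131, 1845, 1964 and 1986 CPM at the early stage, and 1062, 708, 635 and 887 CPM at the advanced stage. Every advanced library lay below every early and every baseline one, and early library 1 lay apart from the other 3 of its group. Advanced against early, the log2 fold change was -1.07 ± 0.24 (unadjusted p = 0.000256, adjusted p = 0.212, edgeR) and -0.58 ± 0.24 for advanced against baseline (adjusted p = 0.415). For advanced against early it ranked 12th of 9920 genes by p, and it passed under limma-voom with quality weights (-1.12, adjusted p = 0.000148), with no filter on low counts (-1.07, adjusted p = 0.00168) and without the libraries that stood apart (-1.20, adjusted p = 0.0381). Over its 16 alternatives the adjusted p ran from 0.000148 to 1.

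F13a1 followed the same order, with 4842, 3577, 4591 and 3384 CPM at baseline, 4441, 3606, 4759 and 4327 CPM at the early stage, and 2726, 2966, 2671 and 3124 CPM at the advanced stage. Here too no advanced library reached the range of an earlier stage. Advanced against early gave a log2 fold change of -0.58 ± 0.18 (adjusted p = 0.730, edgeR) and -0.39 ± 0.18 for advanced against baseline (adjusted p = 0.499). Under limma-voom advanced against early passed (-0.53, adjusted p = 0.00451, within a range of 0.00451 to 1.00 over 16 alternatives).

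Cbr2 had 506, 422, 583 and 702 CPM at baseline, 415, 635, 528 and 287 CPM at the early stage, and 281, 261, 295 and 335 CPM at the advanced stage. The advanced libraries lay below all baseline ones and overlapped the early ones through early library 4. Against baseline, the advanced stage had a log2 fold change of -0.82 ± 0.27 (adjusted p = 0.203, edgeR) and -0.64 ± 0.27 for advanced against early (adjusted p = 1.00). Lyve1, F13a1 and Cbr2 are thus the 3 of 8 members whose advanced libraries all lay below the baseline ones (background 3.78%), and Lyve1 and F13a1 the 2 that did so against the early ones (background 3.76%).

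Sepp1 had 5510, 5212, 6678 and 3856 CPM at baseline, 9254, 6080, 9841 and 7975 CPM at the early stage, and 6834, 6784, 6237 and 6327 CPM at the advanced stage. The early libraries overlapped the baseline ones in early library 2 only. Early against baseline, the log2 fold change was 0.77 ± 0.18 (adjusted p = 0.0779, edgeR). It passed without early library 2 (0.90, adjusted p = 0.0258) and under DESeq2, limma-voom, no filter and a fit of all 36 libraries (0.75 to 0.79, adjusted p = 4.72e-06 to 0.0263), and over all 16 alternatives the highest adjusted p was 0.195. Fibroblast RNA moved with this contrast: the sum of 7 fibroblast genes was 510 to 1058 CPM in early libraries and 8.89 to 287 CPM at baseline, and its part in the Sepp1 level was not tested.

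The other 4 members overlapped between stages. Folr2 had 503, 501, 671 and 328 CPM at baseline, 873, 487, 833 and 303 CPM at the early stage and 717, 453, 529 and 497 CPM at the advanced stage. Ednrb had 739, 422, 314 and 194 CPM at baseline, 509, 454, 853 and 599 CPM early and 590, 563, 609 and 494 CPM at the advanced stage. The baseline libraries of Ednrb spread most, and those of the advanced stage least. Cd209f had 137, 107, 147 and 269 CPM at baseline, 98.6, 104, 157 and 77.6 CPM early and 79.2, 97.5, 116 and 171 CPM at the advanced stage, and Cd209g 35.2, 37.9, 8.34 and 0 CPM, then 89.9, 41.2, 81.4 and 7.51 CPM, then 7.45, 26.6, 39.5 and 57.9 CPM. The log2 fold changes of these 4 genes ran from -0.71 to 1.58 with standard errors of 0.30 to 1.24, the widest of them for Cd209g.

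Over the 8 members the median log2 fold change in the aorta was 0.46 for early against baseline, with 6 of 8 above 0, -0.46 for advanced against early, with 7 of 8 below 0, and -0.07 for advanced against baseline, with 4 of 8 below 0. The medians over all 9920 genes were -0.02, -0.02 and -0.04. The first and second of these comparisons share the early libraries. Markers of other cells moved with them: the fibroblast sum was 140 to 379 CPM at the advanced stage, against 510 to 1058 CPM early, and that of 6 classical monocyte genes 956 to 1265 CPM early, against 3862 to 6386 CPM at baseline. Of the fibroblast genes 0 of 7 passed for advanced against early (median -1.71), and of 5 monocyte genes tested 1 passed, as lower, for early against baseline. Their part in the members' levels was not tested. The summed share of the members was 1.24 ± 0.209% of reads in baseline libraries, 1.62 ± 0.241% in early and 1.18 ± 0.0486% in advanced ones (SD, n = 4).

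**Figure D3:**
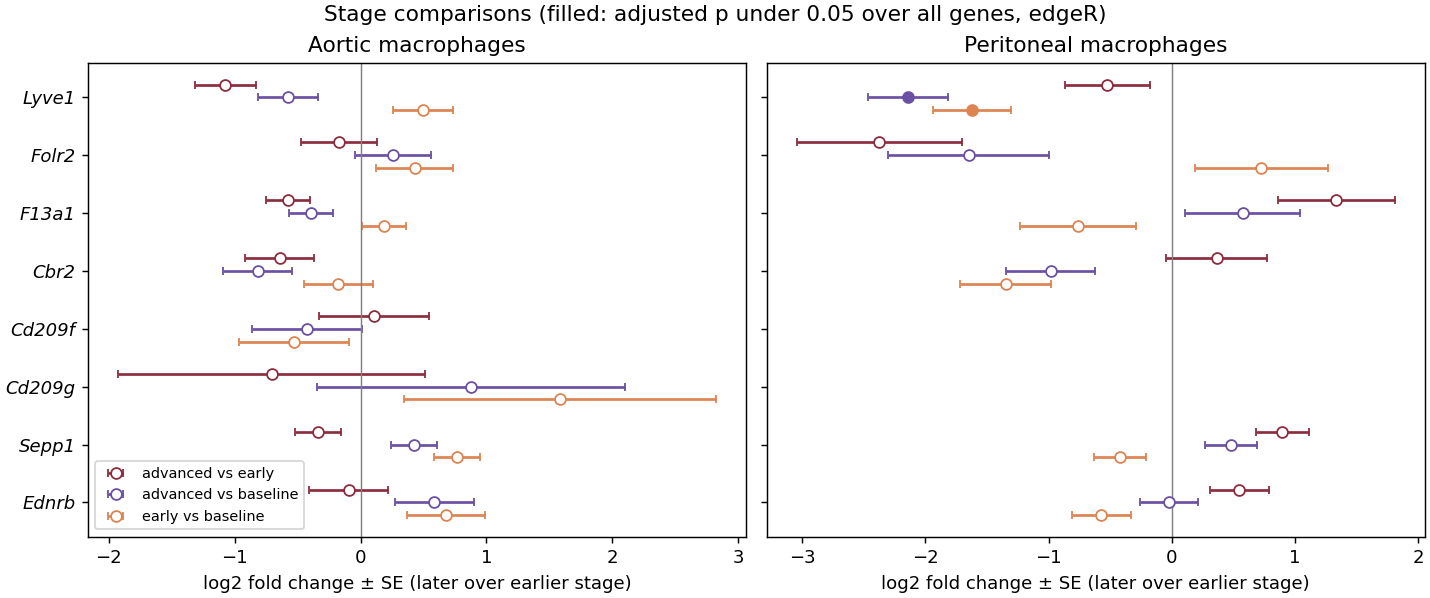
Log2 fold change ± SE (horizontal axis, later over earlier stage) of each gene in the 3 stage comparisons of aortic macrophages (left) and peritoneal macrophages (right). Filled points had an adjusted p under 0.05 over all genes, which holds only for Lyve1 in the peritoneum, at -2.14 and -1.62, and Cd209f and Cd209g were not tested there.

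Genes of lipid-associated macrophages were read beside Lyve1. The summed level of 10 such genes (Trem2, Cd9, Spp1, Gpnmb, Fabp5, Lpl, Ctsd, Lgals3, Cd63 and Itgax) was 1521 to 2092 CPM at baseline, 912 to 1602 CPM at the early stage and 3309 to 9649 CPM at the advanced stage. Of the 10, 3 passed as higher for advanced against baseline (background 0.534%), with a median log2 fold change of 1.95, and 1 for advanced against early (background 0.0302%), with a median of 1.55, while for early against baseline 1 was higher and 1 lower, with a median of 0.37. The advanced libraries form a cluster of their own in the plot of both measures, so no coefficient over the 12 libraries is given. Within the advanced stage, library 1, which stood apart, had the most Lyve1 and the lowest lipid-associated sum (3309 CPM), and library 3 the least Lyve1 and the highest sum (9649 CPM), but library 4 was above library 2 in both measures (sums of 7797 and 6058 CPM). Both measures are shares of the same reads, and the part of the lipid-associated cells in the Lyve1 level was not tested.

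**Figure D4:**
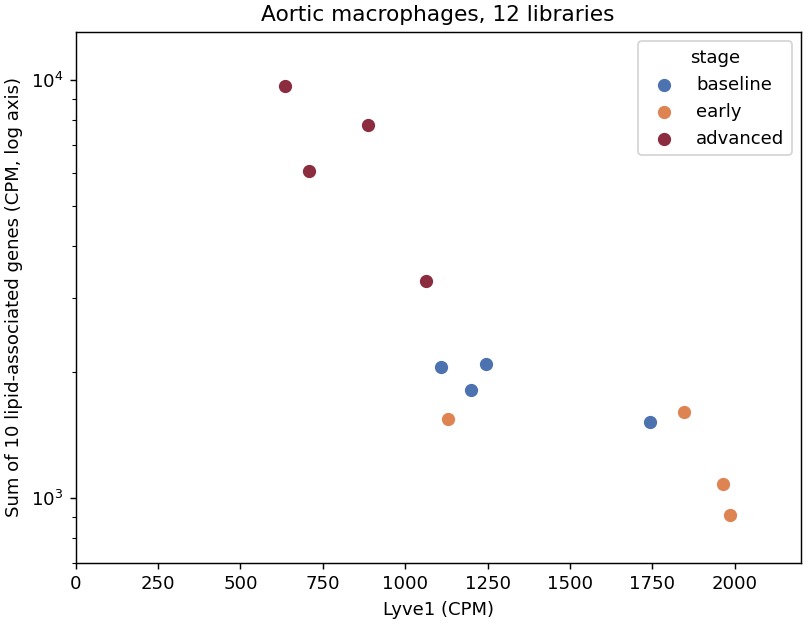
Lyve1 (horizontal axis, CPM) against the sum of 10 genes of lipid-associated macrophages (vertical axis, CPM, log scale) in the 12 aortic macrophage libraries, coloured by stage. The 4 advanced libraries sit at 635 to 1062 CPM of Lyve1 and 3309 to 9649 CPM of the sum, and the other 8 at 1108 to 1986 CPM of Lyve1 and 912 to 2092 CPM of the sum.

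Peritoneal macrophages gave the only stage calls among the members. Of the 8, 6 passed the filter on low counts there (Cd209f and Cd209g did not), and Lyve1 was lower than at baseline at both later stages. It was 1 of 6 called for early against baseline (background 1.88% of 9575 genes, 0.470% in the lower direction) and 1 of 6 for advanced against baseline (background 0.898%, and 0.386% lower), while none of 6 was called for advanced against early (background 1.32%; at an unadjusted p under 0.05, 4 of 6 with a background of 19.4%).

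Lyve1 had 213, 134, 151 and 54.2 CPM at baseline, 50.02, 43.0, 35.8 and 44.0 CPM at the early stage, and 40.4, 18.0, 34.3 and 24.0 CPM at the advanced stage. Every later library lay below every baseline one (background 6.14% for early and 10.3% for advanced against baseline), by a small margin for baseline library 4. Early against baseline, its log2 fold change was -1.62 ± 0.32 (adjusted p = 0.0278, edgeR), and it was -2.14 ± 0.33 for advanced against baseline (adjusted p = 0.0141). The early call was lost with counts thinned to the shallowest library (-1.34, adjusted p = 0.121), without baseline library 1, 2 or 3 (adjusted p = 0.0829, 0.0869 and 0.0862), without early library 2 (0.0640) and without the libraries that stood apart (-1.65, 0.117). The advanced call was lost on thinning (-1.89, 0.0708) and without advanced library 3 or 4 (0.0679 and 0.0652), with the fold change between -1.89 and -2.23 in these. Over 16 alternatives each, the lowest adjusted p was 0.000208 for the early and 2.42e-07 for the advanced comparison.

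Cbr2, lowest on average at the early stage, had 45.5, 30.4, 24.7 and 15.5 CPM at baseline, 17.0, 7.82, 6.09 and 12.7 CPM early and 7.65, 11.4, 20.7 and 14.9 CPM at the advanced stage. At both later stages the overlap was with baseline library 4 alone. It had a log2 fold change of -1.35 ± 0.37 for early against baseline (adjusted p = 0.0737, edgeR), and it passed under DESeq2 (adjusted p = 0.0187), with no filter (0.0270) and without baseline library 4 (-1.54, 0.0428), with 0.483 the highest of 16 alternatives. For advanced against baseline it was -0.98 ± 0.36 (adjusted p = 0.193).

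Folr2 divided the early libraries. It had 34.8, 23.5, 18.5 and 9.71 CPM at baseline, 57.3, 63.7, 6.09 and 10.6 CPM early and 3.83, 2.40, 8.71 and 9.95 CPM at the advanced stage. Early libraries 1 and 2 were above every other peritoneal library. The same 2 libraries held Ccr2 at 897 and 1311 CPM (24.4 and 48.0 CPM in the others), the mannose receptor gene Mrc1 at 322 and 872 CPM (57.1 and 75.2 CPM), Mgl2 at 60.7 and 243 CPM (9.90 and 5.83 CPM) and the large-macrophage factor gene Gata6 at 129 and 71.9 CPM (206 and 194 CPM). Their part in the Folr2 level was not tested. The log2 fold change was -2.38 ± 0.67 for advanced against early (adjusted p = 0.0877, edgeR), passing under DESeq2, no filter, the fit of all 36 libraries and without early library 3 or 4 (adjusted p = 0.0126 to 0.0382), and -1.65 ± 0.65 for advanced against baseline (adjusted p = 0.232), passing without the libraries that stood apart (-1.64, adjusted p = 0.0297, the lowest of 16 alternatives up to 0.995). Without early libraries 1 and 2 and the others that stood apart, the advanced against early fold change was -0.44 (adjusted p = 0.826, the highest of 16), and that of early against baseline turned from 0.73 ± 0.54 to -1.20 (adjusted p = 0.457 with and 0.429 without these libraries).

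**Figure D5:**
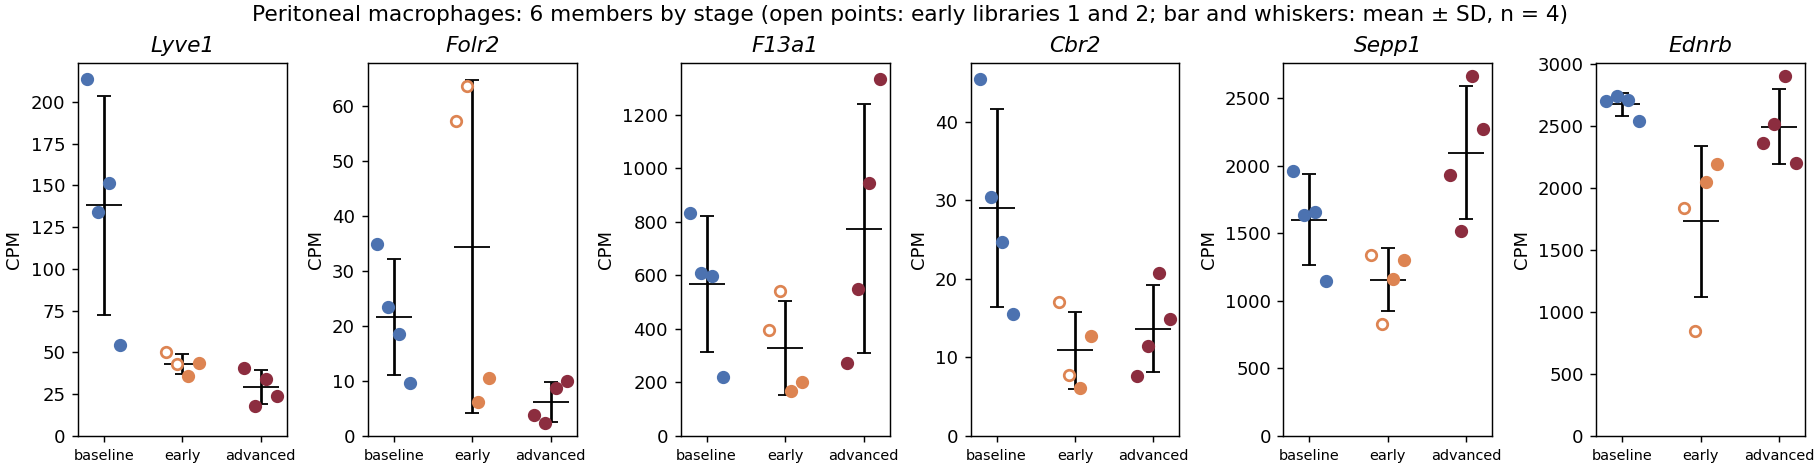
CPM (vertical axis) of 6 genes in the 12 peritoneal macrophage libraries at baseline, early and advanced stage, with points for libraries and bars with whiskers for mean ± SD (n = 4). Open points are early libraries 1 and 2, which lie highest of all 12 for Folr2, at 57.3 and 63.7 CPM.

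The other 3 members had their lowest mean at the early stage. Sepp1 had 1960, 1637, 1656 and 1147 CPM at baseline, 1339, 829, 1162 and 1300 CPM early and 1930, 1513, 2668 and 2270 CPM at the advanced stage. All advanced libraries were above all early ones (background 3.55%), and the log2 fold change was 0.90 ± 0.21 (adjusted p = 0.0540, edgeR). Among 16 alternatives it passed under DESeq2, limma-voom, no filter, the fit of all 36 libraries and without early library 4 (adjusted p = 0.00288 to 0.0371), and the highest was 0.253.

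Ednrb had 2703, 2742, 2711 and 2538 CPM at baseline, 1840, 846, 2050 and 2191 CPM early and 2359, 2512, 2903 and 2202 CPM at the advanced stage. The early libraries lay below all baseline ones (background 6.14%) and below all advanced ones, by a narrow margin. The log2 fold change was -0.57 ± 0.24 for early against baseline and 0.55 ± 0.24 for advanced against early (adjusted p = 0.193 and 0.226, edgeR), and the lowest library, early library 2, is one of those with high Ccr2. Without the libraries that stood apart these were -0.23 and 0.20. F13a1 had 834, 610, 598 and 222 CPM at baseline, 395, 543, 169 and 202 CPM early and 272, 549, 944 and 1334 CPM at the advanced stage. Its groups overlapped, and the log2 fold change was 1.34 ± 0.47 for advanced against early (adjusted p = 0.155), passing under limma-voom (1.79, adjusted p = 0.0390, the lowest of 16 alternatives up to 0.629). Over the 6 genes tested the median log2 fold change was -0.67 for early against baseline, 0.46 for advanced against early and -0.50 for advanced against baseline, and over all genes 0.02, -0.02 and 0.01. Cd209f and Cd209g, left out by the filter, have no part in these medians.

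In monocytes, only F13a1 and Sepp1 passed the filter on low counts, and neither passed the test in any stage comparison (background 10.8% for early against baseline, 2.07% for advanced against early and 19.0% for advanced against baseline). F13a1 had 1455, 1792, 914 and 1968 CPM at baseline, 978, 586, 1276 and 964 CPM early and 1648, 805, 1048 and 974 CPM at the advanced stage. The 3 stages overlapped. Early and baseline did so through baseline library 3 alone, and without that library the early against baseline log2 fold change passed (-0.86, adjusted p = 0.0462, the lowest of 16 alternatives up to 1.00), against -0.67 ± 0.28 with it (adjusted p = 0.135, edgeR). Of the 2 genes, F13a1 alone had an unadjusted p under 0.05, in that one comparison (background 26.2%). The sum of 5 neutrophil genes in these sorts was 2580 to 10023 CPM early and 474 to 777 CPM at baseline. Most of the rise lay in S100a8 (means of 78.8 CPM at baseline and 2804 CPM early) and S100a9 (118 and 3495 CPM). Mmp9 was also higher on average (6.57 and 15.5 CPM), while Csf3r (387 and 251 CPM) and Retnlg (31.7 and 10.1 CPM) were lower. Of the 5 genes 2 passed as higher and 1 as lower, and the part of neutrophils in the F13a1 level was not tested. Sepp1 stayed between 468 and 701 CPM in all 12 monocyte libraries, with log2 fold changes of 0.10 ± 0.13, 0.10 ± 0.13 and 0.20 ± 0.13. Ednrb reached 11.3 CPM in monocyte advanced library 1, from 17 counts, and at most 2.37 CPM in the other 11. It was not tested in monocytes alone, but passed for advanced against baseline under DESeq2 (2.45 ± 0.81, adjusted p = 0.0192) and in the fit of all 36 libraries (2.44 ± 0.55, adjusted p = 0.0326).

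The stage changes of the macrophage populations were also compared with each other, as the aortic minus the peritoneal log2 fold change in a fit of all 36 libraries. Lyve1 differed for early against baseline (2.19 ± 0.47, adjusted p = 0.00259, edgeR; background 8.57%) and for advanced against baseline (1.62 ± 0.47, adjusted p = 0.0328; background 6.03%), its peritoneal fold changes being the more negative. Sepp1 differed for early against baseline (1.25 ± 0.27, adjusted p = 0.00248) and for advanced against early (-1.25 ± 0.27, adjusted p = 0.0123; background 1.41%), the early stage being its highest in the aorta and its lowest in the peritoneum. F13a1 differed for advanced against early (-1.94 ± 0.52, adjusted p = 0.0478). This fit uses 1 spread for populations whose spreads differ, and with 1 weight per population in limma-voom none of the 5 passed (adjusted p = 0.249 to 1.00), though the differences were of like size (-1.72 to 2.04). F13a1 and the advanced Lyve1 difference were also lost on leaving out single libraries, as given below.

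Aortic macrophages exceeded monocytes in 20 of 20 other genes of resident perivascular macrophages (background 18.4%), with a median log2 fold change of 7.13. Those with the smallest p were Maf (3.87), a transcription factor of resident macrophages, Stab1 (9.09), the gene of the scavenger receptor stabilin-1, the chemokine gene Ccl24 (7.51) and Fcgrt (3.96), the neonatal Fc receptor. Against peritoneal macrophages 12 were higher (background 17.1%) and 5 lower (background 17.0%), with a median of 1.71. Gas6 (8.53), which encodes a ligand of TAM receptors, Maf (2.68), Mrc1 (5.42) and the haemoglobin scavenger receptor gene Cd163 (5.42) were higher. The 5 lower, named after their values were seen, were Timd4 (-2.30), a receptor for phosphatidylserine, the complement receptor gene Vsig4 (-2.85), Fcna (-1.62), Ltc4s (-1.26) and Pltp (-0.52).

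Between aortic stages, 2 of the 20 passed, both for advanced against baseline (background 0.585%). Stab1 had 2399, 2235, 1880 and 2047 CPM at baseline, 828, 1140, 1140 and 1077 CPM early and 1361, 796, 826 and 953 CPM at the advanced stage. Its later libraries all lay below the baseline ones, with a log2 fold change of -1.01 ± 0.21 for advanced against baseline (adjusted p = 0.0275, edgeR). Ccl8, a chemokine gene, went the other way, with 107, 132, 150 and 6.00 CPM at baseline, 336, 118, 211 and 94.2 CPM early and 544, 573, 971 and 634 CPM at the advanced stage (2.95 ± 0.60, adjusted p = 0.0219). In the peritoneum 17 of the 20 were tested. For early against baseline Mgl2 was higher (3.94, adjusted p = 0.0333), through early libraries 1 and 2, and Stab1 was lower (-2.79, adjusted p = 0.0314). Cd209b, another lectin of the Cd209 family, was higher at the advanced stage than early (1.37, adjusted p = 0.0398) and than at baseline (1.60, adjusted p = 0.0182), and Ltc4s was lower than at baseline (-0.73, adjusted p = 0.0414).

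The 8 members did not vary as one block across the 12 aortic libraries. Spearman's rho was positive for 21 of their 28 pairs, with a median of 0.18 and a range of -0.44 to 0.66. These libraries share a population but span the stages, and the baseline ones were deeper. Lyve1 had a rho of -0.04 with the mean log2(CPM + 1) of the other 7, the lowest of the 8, and F13a1 the highest, at 0.56. Taken singly, Lyve1 had a rho of 0.65 with F13a1 and 0.55 with Cbr2. With the rest it lay between -0.13 (Folr2) and 0.18 (Sepp1). Cd209g, at 0 to 89.9 CPM, spread widest on the log scale and so weighs most in means that include it. Of 6312 genes with a mean of at least 20 CPM, the 10 most like the members' mean were Clec10a (rho 0.93), Grina and Mrpl24 (both 0.89), Mrpl42 (0.88), Flot2 (0.86), and Mcm3ap, Ldb1, Lrrc47, Cdc40 and Syf2 (all 0.85). Clec10a, which encodes a macrophage galactose lectin, had 350 CPM on average in aortic, 40.2 in peritoneal and 20.7 CPM in monocyte libraries, while the other 9 averaged between 27.5 and 126 CPM in each of the 3 populations.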

How the data were processed

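Libraries were prepared with the Ovation SoLo kit and sequenced in paired ends, per the labels' protocols. The submitters' processing notes name STAR, featureCounts and mm10, and versions, strand setting and treatment of reads with several matches are not given in the sources used here. Each deposited file holds 1 library's counts, whole numbers of reads for each gene. There are no molecular identifiers, and intervals and the floor (3 counts) therefore cover counting error alone. Groups were read from the sample titles.

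CPM is the count over the library's total. Stages were tested in a fit of each population's 12 libraries, and populations and differences in response in one of all 36 with 9 groups. The test was the quasi-likelihood F test of edgeR (4.0.16, in R 4.3.3), two-sided, after TMM normalisation and filterByExpr, with p-values adjusted by Benjamini and Hochberg over all genes tested and 0.05 as the threshold. Standard errors are the size of the log2 fold change divided by the root of F. The procedure was also run on simulated counts, and its rates of recovery there are not given here. Other settings tried were DESeq2 (1.42.0), limma-voom (limma 3.58.1) with quality weights, RLE in place of TMM, no filter, thinning of every library to the smallest, a replicate block, a joint fit of the 36 libraries, and omission of each library. The responses, the limma-voom fit with 1 weight per population, and fits without the libraries that stood apart, were added after seeing the data. Named genes were the 8 members, up to 4 passing genes with the smallest p among 20 other resident genes per comparison, and the 10 genes most like the members' mean, and the 5 resident genes that peritoneal macrophages expressed more highly were named after their values were seen. Members and lists were chosen with earlier results of these data known. Sequences came from RefSeq's GRCm38.p6 tables and gene positions from GENCODE M21.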

Additional observations from a re-analysis of the deposited data

Results flagged for a closer look

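In the early aortic group, library 1 had 1131 CPM of Lyve1 and the other 3 libraries 1845 to 1986 CPM. It was singled out because its gap to the nearest library was 0.835 of the group's range. It was the 1 such library in 49 groups checked, where chance gives about 1 in 20.

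The aortic and peritoneal stage changes differed by an interaction test in 5 cases. The difference in log2 fold change, aorta minus peritoneum, was 2.19 for Lyve1 early against baseline, 1.62 for Lyve1 advanced against baseline, 1.25 for Sepp1 early against baseline, -1.25 for Sepp1 advanced against early and -1.94 for F13a1 advanced against early. Their standing under other fits is given with the processing.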

How the results depend on the processing

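The counts of members called between populations (8, 8 and 7) stayed within 1.5 times under every alternative run, and no value that had passed changed sign. Between stages the counts were less stable. For the aorta, advanced against early had 0 members called, 3 under limma-voom, 1 with no filter and 1 without the libraries that stood apart, and early against baseline had 0, with 1 under DESeq2, limma-voom, no filter and the fit of all 36 libraries and 0 to 1 on leaving out a library. For monocytes, advanced against baseline had 0, with 1 under DESeq2 and the fit of all 36, and early against baseline 0, with 0 to 1 on leaving out a library. For the peritoneum, early against baseline had 1, with 2 under DESeq2 and no filter, 0 on thinning and without the libraries that stood apart, and 0 to 2 on leaving out a library. There advanced against baseline had 1, with 0 on thinning, 2 without the libraries that stood apart and 0 to 1 on leaving out a library, and advanced against early had 0, with 2 under DESeq2, limma-voom, no filter and the fit of all 36 and 0 to 2 on leaving out a library. The cause was not tested in these cases. Of the responses, F13a1 was lost in 12 of 16 fits that left out a library (adjusted p = 0.0532 to 0.173), all but those without aortic early library 2, peritoneal early library 2 or peritoneal advanced library 1 or 2, and Lyve1 for advanced against baseline in 6 (0.0546 to 0.113), those without aortic advanced library 1 or 4, peritoneal advanced library 2 or 4, or peritoneal baseline library 1 or 3. Limma-voom with quality weights also lost both Lyve1 differences, F13a1 and the early Sepp1 difference.

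Between the stages of a population, same-numbered libraries had correlations of -0.338 to 0.165 in their deviations. None of 9 such comparisons had every pair over 0.1. Whether same-numbered libraries of different populations at one stage are paired was not tested, and the population and response comparisons treat them as unpaired. With the replicate block the counts of members called did not move, Lyve1 was at -1.52 and -2.09 in the peritoneum for early and advanced against baseline, and the F13a1 response was lost (-1.91, adjusted p = 0.0801). Depth limits the members near 0, Cd209f and Cd209g outside the aorta and 6 of 8 in monocytes.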
